A study of Danio rerio with 2 samples.

Results

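Immunoglobulin genes were followed through single cells of the adult zebrafish intestine. They were taken by symbol: every gene whose symbol begins with igl and a digit, igic, ighv or ighz, or is ighd, with ighm also asked for but carried by no gene in the files under that symbol. Among 25432 genes, 55 had such a symbol, and the 11 with at least 1 unique molecular identifier (UMI, the tag that counts each captured transcript once) are the genes described here. The other 44 symbols, 35 of them heavy chain variable and 9 light chain variable genes, had 0 UMIs in both libraries.

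The study asked what loss of nod2, an intracellular sensor of bacterial peptidoglycan, does to the intestine. Single-cell RNA sequencing compared 1 WT library (TL strain) with 1 nod2-/- library, each prepared from the dissociated intestines of 5 pooled fish aged 6 months, 2 males and 3 females. All fish were cohoused siblings from an incross, and the mutants carry a 4-base pair deletion that shifts the reading frame of nod2. With 1 library per genotype there was no replicate and therefore no test, and every interval below is an exact 95% interval that covers counting error only, not differences between fish. The WT library held 5891 cells with a median of 3400 UMIs, and the nod2-/- library held 5599 cells with a median of 1940. Levels are given in CPM, the UMIs of a gene per 1000000 UMIs of the same cells. nod2 itself had 139 of 34052268 UMIs in WT and 75 of 22244173 in nod2-/-, and the paper describes its mRNA as below detection. These counts do not check the labels, because a small deletion can leave the counted end of a transcript in place. The libraries shared 10 cell barcodes.

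Antibodies are built from heavy and light chains, each made of a variable part that binds antigen and a constant part that sets the class. A developing B cell joins variable and joining segments, with a diversity segment for the heavy chain, so that a B cell and its descendants express 1 rearranged heavy chain and usually 1 light chain, while a plasma cell, the secreting form, devotes much of its RNA to them. Zebrafish make IgM, IgD and IgZ (also called IgT), and fish carry antibody-producing cells in the intestinal mucosa without organized lymphoid follicles. Because the libraries were made with a 3' kit, reads fall near the end of a transcript, where a rearranged chain carries its constant region, and variable genes resemble each other, so the variable gene to which a UMI was credited is not certain.

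By role, the 11 genes comprised 2 heavy chain constant genes, ighd and ighz, 5 heavy chain variable genes, ighv1-4, ighv5-1, ighv5-2, ighv6-1 and ighv9-2, 2 light chain constant genes, igic1s1 and igl1c3, and 2 light chain variable genes, igl4v8 and igl3v5. For 3 of them the gene name table used here gives another name for the same identifier. The feature ighv1-4 (ENSDARG00000096355) is listed there as ighm, the IgM constant gene, so its UMIs cannot be read as usage of 1 variable segment. The feature igl4v8 (ENSDARG00000079843) is listed there as si:dkey-234i14.9, and ighz (ENSDARG00000096280) as ight. The symbols igl4v8 and ighv1-4 are each also carried by another identifier, which keeps that name in the name table. Those other identifiers had 0 UMIs in both libraries. Symbols below are those of the deposited files.

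Immunoglobulin UMIs were few in both libraries and were held in different ways. WT cells carried 205 immunoglobulin UMIs, or 6.02 CPM (5.22 to 6.90), spread over 182 cells with at most 3 in any of them. nod2-/- cells carried 875, or 39.3 CPM (36.8 to 42.0), in 30 cells, and 1 cell alone held 460. The log2 ratio of nod2-/- to WT CPM was 2.71 (2.49 to 2.93). This ratio rested on 2 nod2-/- cells: without them the nod2-/- level was 1.44 CPM and the log2 ratio was -2.06 (-2.65 to -1.52), so that the direction turned. The 2 cells were picked by these same UMIs. The turn came from ighv1-4 alone, with 198 WT and 14 nod2-/- UMIs outside them, a log2 ratio of -3.21 (-4.11 to -2.43). igl4v8, igic1s1, ighz and ighd had higher nod2-/- CPM outside them, from at most 7 UMIs per library. Of these, only the igic1s1 interval excludes equal levels.

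igl4v8, a light chain variable gene by its symbol in the files, accounted for most of the difference. It had 654 UMIs in 7 nod2-/- cells and 3 UMIs in 3 WT cells, or 29.4 CPM (27.2 to 31.7) against 0.088 CPM (0.018 to 0.257), and it was therefore not confined to 1 library. ighv1-4 had 188 UMIs in 15 nod2-/- cells and 198 UMIs in 177 WT cells, or 8.45 CPM (7.29 to 9.75) against 5.81 CPM (5.03 to 6.68). These totals are alike in size, yet the cells behind them are not, since WT cells held at most 3 ighv1-4 UMIs each.

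The light chain constant gene igic1s1 had 17 UMIs in 8 nod2-/- cells and 1 UMI in WT. igl1c3, the other light chain constant gene, had 2 UMIs in 1 nod2-/- cell and 0 in WT. Both were rare beside igl4v8. ighz, the IgZ constant gene, had 3 UMIs in nod2-/- and 2 in WT, and ighd, the IgD constant gene, had 2 and 1. The light chain variable gene igl3v5 and the heavy chain variable gene ighv5-1 had 3 UMIs each, and ighv5-2, ighv6-1 and ighv9-2 had 1 each, all in nod2-/-. No value is given for IgM by name.

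**Figure D1:**
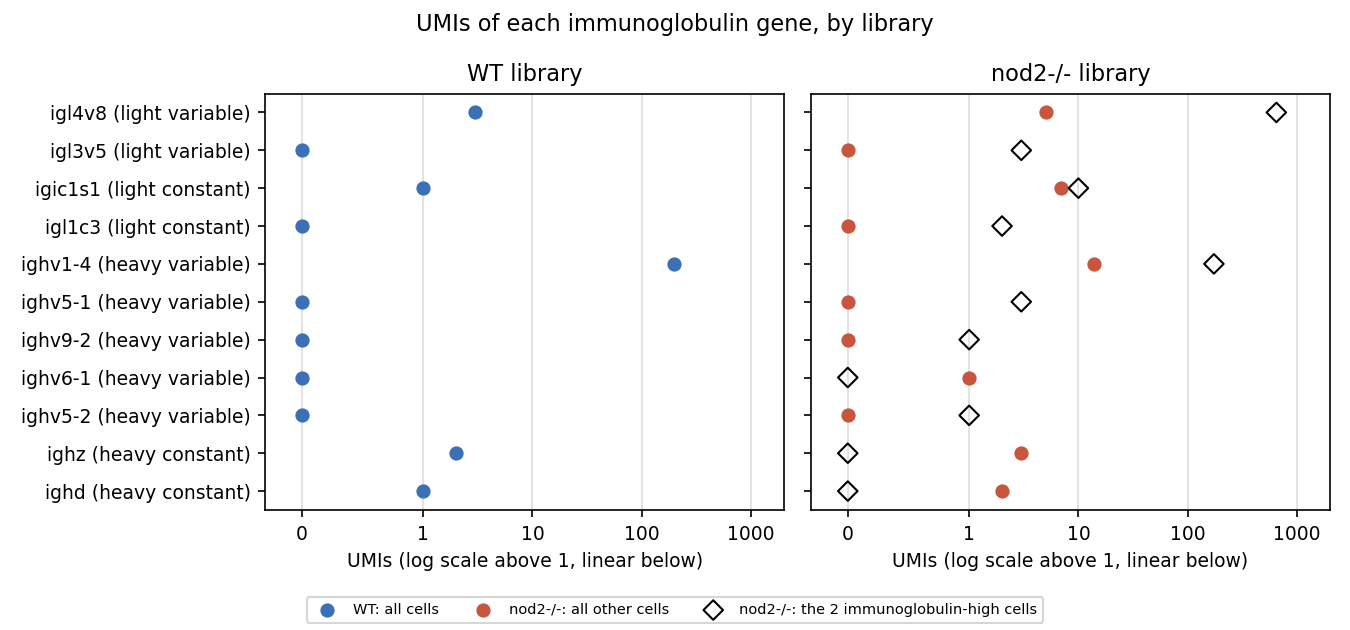
UMIs of each of the 11 immunoglobulin genes in the WT library (left) and the nod2-/- library (right), on a scale that is logarithmic above 1 UMI and linear below. Filled points are the sums over all WT cells or all other nod2-/- cells, and open diamonds are the sums over the 2 immunoglobulin-high nod2-/- cells, which hold nearly all igl4v8 UMIs (654 in nod2-/-, 3 in WT).

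Among the 11 genes, 6 had UMIs in nod2-/- only, none in WT only, and 5 in both libraries. Over all 23052 genes with a UMI, 2.55% were seen in nod2-/- only. That share covers genes of any UMI count, so nothing is read from setting the 6 beside it. All UMIs of igl3v5, ighv5-1, igl1c3, ighv5-2 and ighv9-2 lay in the 2 nod2-/- cells on which the library ratio rested. The 1 UMI of ighv6-1 lay in another cell. The highest of the 6 counts was 3, and a count of 0 in WT allows up to 3 UMIs at this depth, so no difference between the libraries was detectable for any of them. Accordingly, none of the 11 genes had 0 UMIs in one library and 5 or more in the other, against 0.231% of genes that had at least 5 nod2-/- UMIs and 0.7% of genes that had at least 5 WT UMIs. Only igl4v8, ighv1-4 and igic1s1 reached 5 nod2-/- UMIs, and only ighv1-4 reached 5 WT UMIs. The other genes could not be counted, so nothing is read from this 0. At least 10 UMIs were counted for 3 of the 11 genes, and 2 of those 3, igl4v8 and igic1s1, had at least 2-fold higher CPM in nod2-/-, against 7.46% of 19146 genes, while 0 of the 3 were at least 2-fold lower, against 5.4%. Both genes reached 10 UMIs only through nod2-/-, so nothing is read from this count. Their UMIs came in large part from the same 2 cells, which held 98.8% of all igl4v8 UMIs and 55.6% of all igic1s1 UMIs. Outside them the igl4v8 counts were 5 and 3, with a log2 ratio of 1.35 (-1.01 to 4.04), which does not exclude equal levels. The igic1s1 counts outside them were 7 in nod2-/- and 1 in WT. Their log2 ratio was 3.42 (0.46 to 8.92), which excludes equal levels by counting error but rests on 1 WT UMI.

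The 2 cells were found by a rule: a cell was called immunoglobulin-high when it held at least 10 immunoglobulin UMIs making up at least 1% of its UMIs. Both were nod2-/- cells. They held 383 or more such UMIs each, whereas the cell nearest to the limits from outside held 3 UMIs and the highest share outside was 0.485%. They make up 0.0357% of nod2-/- cells (exact binomial interval 0.0043 to 0.129), and 0 of 5891 WT cells allows a share of up to 0.0509%, so a difference in the frequency of such cells was not detectable. Together they held 843 of the 875 nod2-/- immunoglobulin UMIs, or 96.3%.

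**Figure D2:**
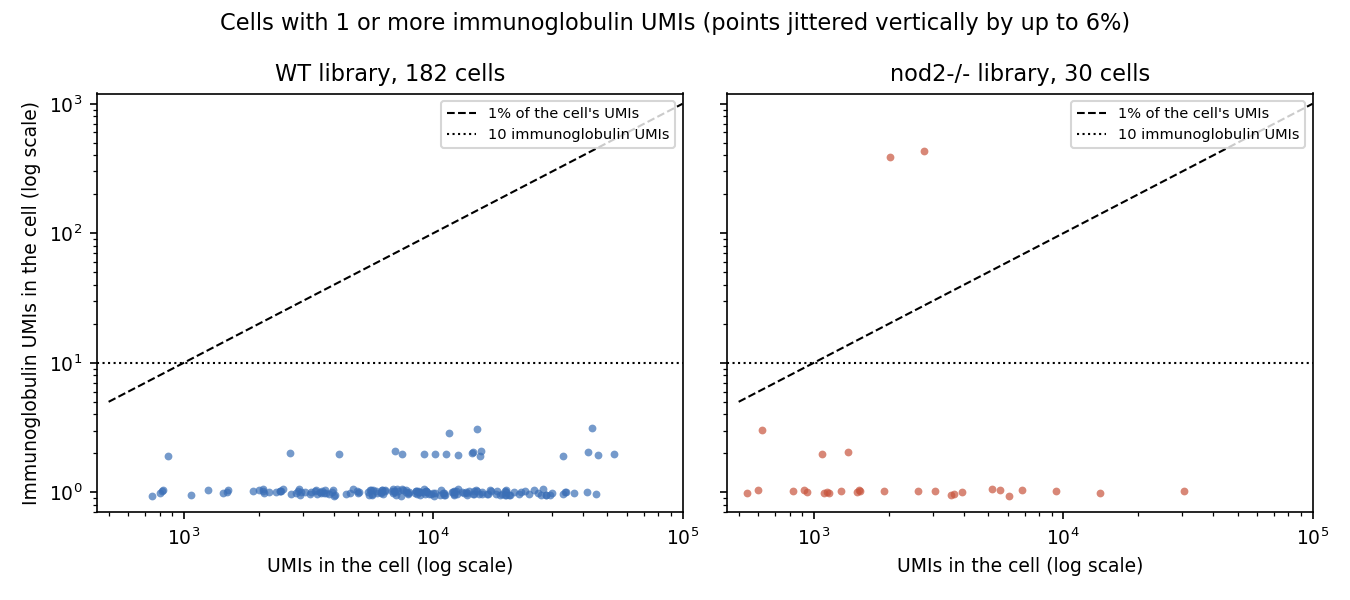
Immunoglobulin UMIs against all UMIs for each cell with at least 1 immunoglobulin UMI, 182 WT cells (left) and 30 nod2-/- cells (right), both axes logarithmic. The dashed line marks 1% of a cell's UMIs and the dotted line 10 immunoglobulin UMIs; only 2 nod2-/- cells lie above both, at 460 and 383, and all others hold 1 to 3.

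The first immunoglobulin-high cell held 2775 UMIs from 784 genes, of which 460, or 16.6%, were immunoglobulin. igl4v8 gave 350 of them, ighv1-4 98, igic1s1 6, ighv5-1 3, igl3v5 2 and ighv5-2 1. The second held 2015 UMIs from 478 genes, of which 383, or 19.01%, were immunoglobulin. There igl4v8 gave 299, ighv1-4 76, igic1s1 4, igl1c3 2, igl3v5 1 and ighv9-2 1. In each cell 1 light and 1 heavy feature stood far above all others, and both cells had the same pair. igl4v8 made up 99.4% (98.0 to 99.9) and 99.7% (98.2 to 99.99) of light chain variable UMIs, while ighv1-4 made up 96.1% (90.3 to 98.9) and 98.7% (93.0 to 99.97) of the UMIs under heavy chain variable symbols. Because the ighv1-4 identifier is the IgM constant gene in the name table, its share does not show that the cells used the same heavy chain variable segment. The igl4v8 identifier also has another name there, and the variable gene credited with a UMI is uncertain. Its share therefore does not show that the cells used the same light chain variable segment. A gene of like name, si:dkey-234i14.15, had 4 UMIs, all in the second cell. The other genes of like name had no UMI in either cell. Among them were si:dkey-234i14.2, with 22 WT and 25 nod2-/- UMIs, and si:dkey-234i14.6, with 28 and 18.

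The ratio of igl4v8 to ighv1-4 was also alike, 3.57 (2.85 to 4.52) in the first cell and 3.93 (3.05 to 5.13) in the second. Outside both cells the order was the reverse, with 3 igl4v8 against 198 ighv1-4 UMIs in WT and 5 against 14 in nod2-/-. The barcodes of the 2 cells differ at 10 bases, and neither is among the barcodes that the libraries share. Whether the cells come from 1 fish or 1 clone cannot be told, because fish were pooled and the rearranged sequences were not used here. Neither cell had a UMI of ighd or ighz.

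Nearly all igl4v8 UMIs lay in the 2 immunoglobulin-high cells. Its highest cell held 53.3% of its 657 UMIs over both libraries, and the 2 highest cells together held 99.2% of its nod2-/- UMIs. Each of the other 5 nod2-/- carriers and each of the 3 WT carriers had 1 UMI. A single cell held 50% or more of the UMIs for 0.125% of genes with at least 10 UMIs. Of 4979 other genes with 0.5 to 2 times as many UMIs as igl4v8, 4 had as high a share in 1 cell, and their median was 0.617%. igl4v8 has this many UMIs only through the 2 cells, which were called by these same UMIs. Nothing is therefore read from its place among other genes. For ighv1-4 the highest cell held 25.4% of 386 UMIs, a share reached by 13 of 5148 genes of like counts, and the median over those genes was 0.851%. That cell is also 1 of the 2 called by these UMIs, so nothing is read from this place either. igic1s1, with 18 UMIs, had 33.3% in its highest cell. Over the 3 immunoglobulin genes with at least 10 UMIs the median share was 33.3%. It was 2.50% over 13104 other genes with at least 10 UMIs and no more than igl4v8 had. Of the 3, igl4v8 and igic1s1 reached 10 UMIs only through the 2 immunoglobulin-high cells, so nothing is read from this median.

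**Figure D3:**
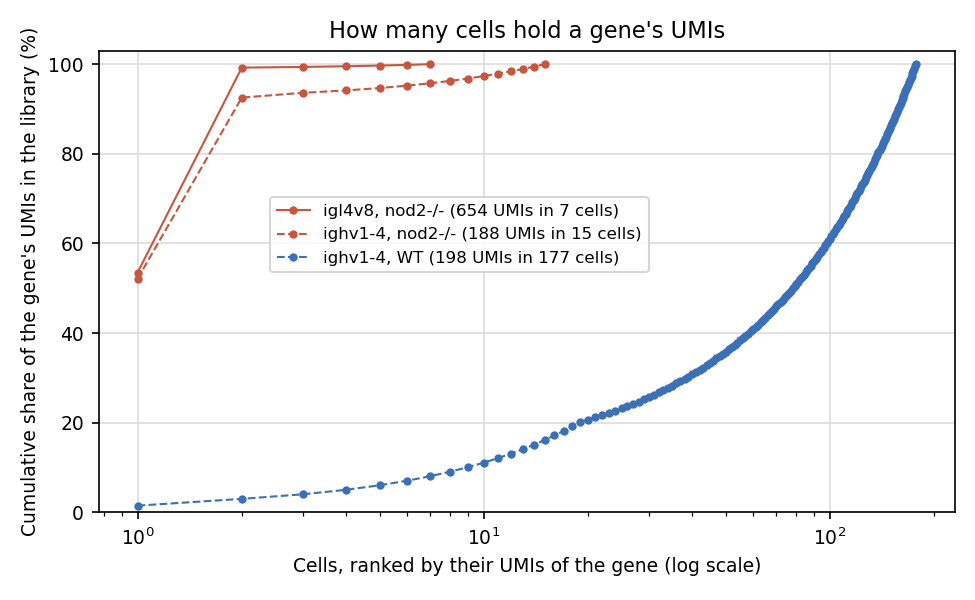
Cumulative share of a gene's UMIs in a library (%) against the rank of the cell by its UMIs of that gene (logarithmic). In nod2-/- the first 2 cells hold 99.2% of igl4v8 UMIs (solid) and most ighv1-4 UMIs (dashed, 188 UMIs in 15 cells), while in WT the 198 ighv1-4 UMIs climb slowly over 177 cells.

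The 2 cells were then read against markers of B and plasma cells. cd79a, a signalling subunit of the B cell receptor, had 0 UMIs in both, as did cd37, a tetraspanin of mature B cells, and all 8 B cell marker features in the files, among them pax5 and cd22. Of 4 plasma cell markers in the files, 1 was present: xbp1, the transcription factor of the secretory program, had 8 UMIs in the first cell and 0 in the second. From 16 genes for plasma cells and the secretory route, 4 had UMIs and 12 were at 0, prdm1a and irf4a included. The median log2 ratio of the list to other nod2-/- leukocyte-cluster cells was -1.04, beside -1.10 over all genes. The 2 cells had a UMI for only 1061 of 15953 genes, so both medians describe genes at 0 and nothing is read from them. Summed over the list, the level was 4384 CPM in the 2 cells, from 15 and 6 UMIs, and 720 CPM in the other leukocyte-cluster cells. hspa5, the main chaperone of the endoplasmic reticulum, had 4 UMIs in each cell, and ssr4, a part of the translocon, had 2 in each. Against the 1111 other nod2-/- cells of leukocyte clusters the log2 ratios of the genes with the most UMIs, named because they had them, were 3.15 (1.92 to 4.15) for xbp1, 2.93 (1.70 to 3.93) for hspa5 and 3.30 (1.39 to 4.70) for ssr4. Because each ratio comes from 4 to 8 UMIs in 2 cells, and all xbp1 UMIs from 1 of them, the cells are called by their rule and given no cell type name.

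Antigen presentation genes also had UMIs in both cells. cd74a, the invariant chain of MHC class II, had 16 and 9 UMIs, and mhc2a, a class II chain, had 9 and 2. Of the 10 genes of that list 4 had a UMI in either cell. From the B cell receptor signalling list 5 of 21 features had UMIs, with at most 3 for any of them, and cd81a, a partner of the B cell co-receptor, was the highest with 1 and 2. None of 14 B cell identity factors and none of 5 genes for immunoglobulin transport had a UMI. These low counts say little at 2775 and 2015 UMIs, where 1 UMI over both cells equals 209 CPM. T cell and macrophage markers, 7 and 8 features, were also at 0, while 5 of 9 enterocyte markers had 1 to 3 UMIs over both cells. The enterocyte markers summed to 2088 CPM in the 2 cells, below the 7331 CPM of the other nod2-/- leukocyte-cluster cells. Of 8 general leukocyte markers, coro1a and arhgdig had 1 UMI each in the first cell, and all 8, ptprc included, were at 0 in the second.

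The 2 cells differed from each other in other genes. The clustering, made without the immunoglobulin genes, placed the first in cluster 16, named cycling with mki67 and ube2c among its leading genes, and the second in leukocyte cluster 1, whose leading genes included ptprc and ccl36.1 although this cell had no UMI of ptprc. Histone symbols made up 86 UMIs in the first and 2 in the second, and ube2c and pcna, both of dividing cells, had 2 UMIs each in the first and 0 in the second. These were 2 of 8 cycling marker features, and the others, mki67 included, were at 0 in both cells. Of the 10 genes with the largest ratio to other nod2-/- leukocyte-cluster cells, 9 had UMIs in the first cell only. They included hist1h2a6 with 9 UMIs, hist1h4l with 6 in each of 2 identifiers, hist1h2a3 with 5, zgc:110425 with 9 and si:dkey-108k21.10 with 11. The exception, zgc:153659, had 1 and 3. Histone genes have near-identical copies, so how their UMIs split among identifiers is uncertain. The second cell lay above the 95th percentile of doublet scores in its library and the first just below it, at percentiles 99.6 and 94.1. The automatic caller marked 0 cells, which is not read as an absence of doublets, because 0 is also recorded when it returns no call. A role of doublets was not tested.

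The remaining immunoglobulin UMIs were single molecules in many cells. In WT, 162 of the 182 carriers had 1 UMI, 17 had 2 and 3 had 3, and in nod2-/- the 28 other carriers held 32 UMIs. Only 2 of these cells in each library had UMIs of 2 immunoglobulin genes. WT carriers had a median of 8732.5 UMIs against 3282 in cells without such a UMI, and the other nod2-/- carriers 1520.5 against 1941. These medians mix classes of unlike depth. Of the 182 WT carriers 153 were epithelial, while 18 of the 28 nod2-/- carriers lay in leukocyte clusters. In nod2-/-, cells without such a UMI had a median of 908 UMIs in leukocyte clusters and 3050 in epithelial clusters. The depth of carriers therefore cannot be compared between the libraries from these values.

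ighv1-4 outside the 2 cells was found in nearly every WT class. Of its 198 WT UMIs, 170 lay in epithelial clusters, in 150 of 4600 cells (3.26%), at 5.56 CPM (4.76 to 6.46). 7 of the 8 epithelial classes had UMIs, from 3.06 CPM in goblet cells to 12.5 CPM (7.94 to 18.8) in BEST4 cells, and tuft cells had 0 UMIs in 59 cells. Acinar cells, exocrine pancreas that came with the tissue, held 7 UMIs at 6.51 CPM. Epithelial cells supplied 89.8% of all WT UMIs and 85.9% of ighv1-4 UMIs. The level was also much the same at every depth: in 4 bins of 1150 WT epithelial cells from the shallowest to the deepest it was 4.13, 6.60, 5.59 and 5.43 CPM, with intervals that overlap, while the share of cells with a UMI went from 0.435% to 7.04%.

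The nod2-/- epithelium differed. Its 4054 cells outside the 2 held 2 ighv1-4 UMIs, 1 in enterocytes and 1 in lysosome-rich enterocytes, or 0.101 CPM (0.012 to 0.366), where the WT level would have given 110 UMIs. The log2 ratio was -5.78 (-8.84 to -3.90), and it is based on 2 UMIs in nod2-/-. With every cell thinned to 500 UMIs, 15 WT and 0 nod2-/- epithelial cells had one. Among 12210 genes with at least 50 WT epithelial UMIs, 1.15% were at least 4-fold lower in nod2-/- and 0.115% were as low as ighv1-4 when counts under 3 were set to 3. Genes entered this set by their WT UMIs alone, the side on which ighv1-4 was high, so nothing is read from its place. The median epithelial cell had 4710 UMIs in WT and 3060.5 in nod2-/-. When the first immunoglobulin-high cell is counted in, since its cycling cluster is epithelial by name, the nod2-/- count becomes 100 and the log2 ratio -0.14 (-0.51 to 0.23). Whether the WT UMIs were made in these cells or came from free RNA of other cells was not tested.

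Leukocyte clusters carried ighv1-4 in both libraries. Outside the 2 cells it had 14 UMIs in 13 of 817 WT cells and 11 UMIs in 10 of 1111 nod2-/- cells, at 12.5 CPM (6.84 to 21.0) and 8.996 CPM (4.49 to 16.1). The log2 ratio, -0.48 (-1.76 to 0.77), leaves both directions possible, and the second immunoglobulin-high cell, when counted in, raises it to 2.51 (1.68 to 3.44). The leukocyte share of ighv1-4 UMIs was 7.07% in WT and 78.6% in nod2-/-, beside 3.29% and 5.50% of all UMIs.

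Within leukocytes 3 clusters held most of these UMIs. Clusters 15, 19 and 25 had 12 of 14 in WT and 9 of 11 in nod2-/-, at 49.3 CPM (25.5 to 86.1) and 30.5 CPM (13.9 to 57.9), while the other leukocyte clusters were at 2.28 CPM (0.277 to 8.25) and 2.16 CPM (0.261 to 7.79). The 3 clusters were grouped after their values had been seen, so this difference is a description that the choice of clusters fixed. Cluster 15 had 1 UMI in WT, at 10.0 CPM (0.254 to 55.9), and 4 in nod2-/-. Cluster 15 counted all 8 macrophage markers and was led by cd74a and mpeg1.1, cluster 19 was led by ccl36.1, ptprc and blnk, and cluster 25 by msi2a, csf1rb and ccr9a. Cluster 19 had 6 carriers of 60 cells in WT (10.0%) and 1 of 38 in nod2-/- (2.63%), and cluster 25 had 4 of 13 (30.8%) and 4 of 31 (12.9%). In WT epithelium, whose median depth of 4710 UMIs is above the 1445 and 3510 of those clusters, the share was 3.26%. At 500 UMIs per cell the carriers were 2 of 60 and 1 of 38 in cluster 19, 0 of 13 and 1 of 31 in cluster 25, and 15 of 4600 in WT epithelium, too few to order. No leukocyte cluster counted any of the 8 B cell marker features at the level set for a marker, which was at least 2 times the median cluster in at least 5% of cells, and over all clusters only cluster 14, named enteroendocrine, counted 1.

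**Figure D4:**
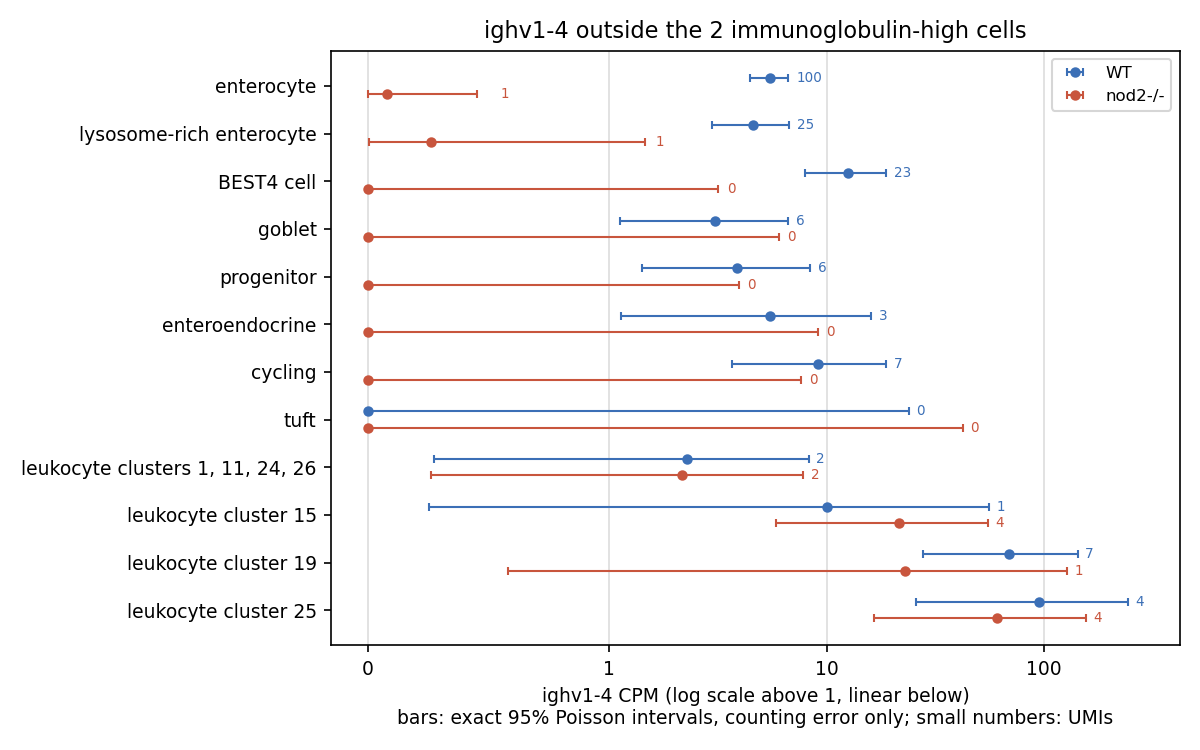
ighv1-4 level (CPM, logarithmic above 1 and linear below) by cell class or leukocyte cluster in WT (blue) and nod2-/- (red), without the 2 immunoglobulin-high cells; bars are exact 95% Poisson intervals for counting error and small numbers are UMIs. WT epithelial classes other than tuft lie between 3.06 and 12.5 CPM, nod2-/- epithelial classes at or below 0.262 CPM, and leukocyte clusters 19 and 25 rest on 7 and 4 UMIs in WT and 1 and 4 in nod2-/-. Only 2 of the 8 nod2-/- epithelial classes have UMIs. For some of those at 0 the upper limit passes the WT level, as in goblet cells (6.01 against 3.06 CPM), so not every class differs by itself.

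Outside the 2 cells, ighd, ighz and igic1s1 were seen mostly in leukocyte clusters, unlike ighv1-4 in WT, the feature that the name table lists as the IgM constant gene. All ighz UMIs, 2 in WT and 3 in nod2-/-, fell in clusters 15 and 19, and the ighd UMIs fell in clusters 15, 24 and 25. igic1s1 had 6 UMIs in 5 nod2-/- cells of cluster 15 and 1 in an enterocyte cluster, and its 1 WT UMI was in an enterocyte cluster. igl4v8 outside the 2 cells had 3 UMIs in WT and 5 in nod2-/-, all in epithelial clusters, which supply 89.8% and 88.9% of all UMIs. The 2 nod2-/- cells with 2 immunoglobulin genes both lay in cluster 15, 1 with ighv1-4 and igic1s1 and 1 with ighv1-4 and ighz.

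Cells with cd79a or cd37 were too few to show whether they carried immunoglobulin more or less often than other cells. cd79a had 28 UMIs in 28 WT cells, 23 of them epithelial and 0 leukocyte, and 20 UMIs in 20 nod2-/- cells, 11 epithelial and 4 leukocyte. Of these, 1 WT cell carried immunoglobulin, with 2 UMIs, and 0 nod2-/- cells did. Carriers made up 3.09% of all WT cells and 0.536% of all nod2-/- cells, so these counts do not set cd79a cells apart. cd79a was found in 1 of 182 WT carriers (0.549%, 0.014 to 3.02) and in 0.495% of WT epithelial cells without an immunoglobulin UMI, at median depths of 8732.5 and 4543 UMIs. At this level cd79a did not stand above the share in cells that should lack it. cd37 had 1 UMI in WT, in a leukocyte, and 0 in nod2-/-, and cd79b, the partner of cd79a, had 0 in both. At least 3 of the 4 plasma cell markers were found together in 0 WT cells and 1 nod2-/- cell, an epithelial one without immunoglobulin. pax5, which sets B cell identity, had 6 and 2 UMIs, and cd22, an inhibitory B cell receptor, 11 and 4.

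Other genes of the antibody pathway were read in the leukocyte clusters from lists. A gene was counted as changed in size when its CPM differed at least 2-fold between libraries with at least 10 UMIs over both, which 9.10% of 9950 genes did toward nod2-/- and 7.63% toward WT. Of 15 B cell receptor signalling features 0 were higher and 1 lower: btk, a kinase of the receptor, gave 28 WT and 15 nod2-/- UMIs, a log2 difference in CPM of -1.03 (-2.04 to -0.07). blnk, its adaptor, gave 96 and 72, and their levels were 85.8 and 58.9 CPM. Cluster 19, with 60 WT and 38 nod2-/- cells, held 84 of the WT and 45 of the nod2-/- blnk UMIs. Cluster 15 held 7 and 25. Of 12 B cell identity factors 1 was higher, irf8 with 13 WT and 44 nod2-/- UMIs (log2 difference 1.63, 0.71 to 2.65), and 2 were lower, while 0 of 13 plasma cell and secretory genes passed in either direction. irf8 also serves macrophages, and cluster 15, with macrophage markers, has 49 WT and 117 nod2-/- cells; its part in this result was not tested. In bulk sums over all leukocyte clusters, fewer cells of a type and less RNA per cell cannot be told apart. The part of either in the blnk levels was not tested. Of 7 genes for survival and homing, itga4, an integrin chain, was higher (5 and 19 UMIs, log2 difference 1.80, 0.33 to 3.58) and cxcr4a, a chemokine receptor, was lower (80 and 37, -1.24, -1.84 to -0.66). Another integrin chain of that list, itgb7, went toward WT but by less than 2-fold (148 and 91, -0.83, -1.22 to -0.44). The homing receptor ccr9a was level (421 and 457, -0.01, -0.20 to 0.19). 9 genes of antigen presentation had 0 in either direction, with a median log2 ratio of 0.19 beside -0.03 over all genes. Of 3 transport features 1 passed toward WT, pigrl2.3 with 9 and 4 UMIs and an interval that includes no change (log2 difference -1.30, -3.45 to 0.54). pigr, the receptor that carries antibodies across the epithelium, had 59 UMIs in WT and 25 in nod2-/- over all cells, a log2 ratio of -0.62 (-1.36 to 0.07). In epithelial clusters alone the pigr counts were 52 in WT and 12 in nod2-/-, at 1.70 and 0.607 CPM, a lower nod2-/- level than the all-cell ratio shows. rag1 and rag2, which cut immunoglobulin genes for rearrangement, had at most 3 UMIs per library.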

How the data were processed

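Per the labels and methods, the authors dissociated intestines, prepared 3' libraries and made UMI counts per gene and cell with Cell Ranger 7.0.1 on GRCz11; the deposited counts carry no normalization. All 11490 deposited cells were used, although 5854 exceed the 2500 UMIs of the stated filter. Cells were clustered with Seurat 5.3.0 in R 4.3.3 (2000 variable genes, canonical correlation integration, 50 principal components, resolution 0.8), with the 55 immunoglobulin symbols kept out. A marker counted at 2 times the median cluster after 10 CPM were added, in at least 5% of cells, and a class needed 3 markers; the ranking of classes was adjusted after the clusters had been seen. Scrublet (scanpy 1.11.5) made 0 calls, and 245 WT and 240 nod2-/- cells above the 95th percentile of scores were removed in an alternative. Intervals are exact Poisson, Clopper-Pearson or conditional binomial ones. Ratios over lists had 5 CPM added. TMM totals came from edgeR 4.0.16. Genes named are all constant genes, variable genes with at least 20 UMIs or seen in 1 library, cd79a, cd37, the 10 leading genes of the 2 cells, and examples from lists. The genes and lists were chosen with earlier results of these data known. Scripts were tested on simulated data. Sequences of the genes were not used here.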

Additional observations from a re-analysis of the deposited data

How the results depend on the processing

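No paired analysis was possible because each genotype has 1 library. Of 50 alternative values 30 stayed within 1.5 times a count or inside the interval of the reported value, 19 moved beyond it and 1 reversed. At this depth, all genes except igl4v8, ighv1-4 and igic1s1 have 5 UMIs or fewer over both libraries.

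The log2 ratio of all immunoglobulin UMIs was 3.96 under the filter worded in the methods, 1.97 without high doublet scores, 1.65 without the cell with the most such UMIs in each library and -2.06 without both immunoglobulin-high cells, an alternative chosen after seeing the data. The first 3 settings each left 1 immunoglobulin-high cell, since the filter removes the first and the doublet scores the second. The share of nod2-/- UMIs in such cells was then 93.5% without high doublet scores and 92.3% without the top cell, and the leukocyte share of nod2-/- UMIs became 97.6% without the top cell. The filter also left 0 carriers with cd79a, cd37 or plasma markers, and 2 genes with 0 UMIs in WT and at least 5 in nod2-/-, igl4v8 (299 UMIs) and igic1s1 (10). With a minimum of 3 UMIs the latter count was also 2, ighv5-1 and igl3v5. The share of igl4v8 in its top cell was 100% under the filter, 97.8% without high doublet scores and 97.7% without the top cell, and that of ighv1-4 was 73.1% and 33.1% under the first 2. Also chosen after seeing the data, counting in the immunoglobulin-high cells gave log2 ratios for ighv1-4 of -0.14 in epithelial and 2.51 in leukocyte clusters. Under the filter, epithelial ighv1-4 had 8 WT and 0 nod2-/- UMIs. The 5 or 50 UMI thresholds and thinning to 500 UMIs all gave the same number of immunoglobulin-high cells, 2. Beyond the cells and genes that each setting leaves out, the cause of these moves was not tested.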
